A study of Homo sapiens with 6 samples.

Results

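PIEZO1 and RRP1 were examined as 2 transcripts whose binding sites were denser with isoform 7 of FMR1 than with isoform 1. PIEZO1 is a very large, mechanically gated cation channel of the plasma membrane. RRP1, also known as NOP52, is a nucleolar protein that takes part in processing of ribosomal RNA for the large ribosomal subunit. A site belonged to a gene when its midpoint lay within the gene's hg19 span on the gene's strand, which was chromosome 16 from 88781751 to 88851372 on the minus strand for PIEZO1 (69.6 kb) and chromosome 21 from 45209394 to 45225174 on the plus strand for RRP1 (15.8 kb). Of 464799 sites in 6 libraries, 196 fell in PIEZO1 and 44 in RRP1. Both genes were selected on site density: windows of 50 kb at these loci held more sites with isoform 7 than with isoform 1, in wild type and in I304N, so every isoform 7 to isoform 1 ratio below is a description of how they were chosen and not evidence for it.

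The sites come from PAR-CLIP, in which 4-thiouridine is built into cellular RNA and ultraviolet light links it to bound protein. All cells were FlpIn T-Rex HEK293, an established human embryonic kidney line, that expressed a FLAG-HA-tagged transgene after 16 h with 1 µg/ml doxycycline and 100 µM 4-thiouridine. In every library the light was 365 nm at 0.15 J per square cm, and RNase T1 was used for 15 min at 22 °C. The 6 groups were FMR1 isoform 1 as wild type (WT-iso1) and as I304N (I304N-iso1), FMR1 isoform 7 as wild type (WT-iso7) and as I304N (I304N-iso7), and wild-type FXR1 and FXR2, with 1 library each and 9017 to 132219 sites per library. No value therefore has a replicate error, no test between groups was possible, and all intervals are 95% intervals that cover counting error only. The deposited lists give no reads per site, and the labels do not say that the cells' own FMR1, FXR1 or FXR2 was removed.

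FMR1, the protein lost in fragile X syndrome, binds messenger RNA and is best known for restraining translation, and FXR1 and FXR2 are its close paralogs. I304N is a rare amino acid change in the second KH domain, a fold that contacts RNA, and it is known to take FMR1 off polyribosomes. Isoforms 1 and 7 come from alternative splicing of the same gene. Short RNA elements associated with FMR1 binding are WGGA, here AGGA or TGGA in DNA letters, and ACUK, here ACTG or ACTT. Whether these elements were described independently of the present libraries was not checked here.

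No hg19 genome was used here, so the sequence under each site was not read. The messenger RNAs themselves could be searched, and the stretches below show what the elements look like in them. Each is the run of 60 coding nucleotides with the most elements in the longest protein-coding transcript of GENCODE release 29 (GRCh38), with the elements in capitals. They were picked for their element number, and whether a site lies on either was not analysed.
PIEZO1 mRNA, nucleotides 2467 to 2526 of 8089: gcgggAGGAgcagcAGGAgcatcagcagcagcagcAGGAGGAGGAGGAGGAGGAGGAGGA
RRP1 mRNA, nucleotides 276 to 335 of 3022: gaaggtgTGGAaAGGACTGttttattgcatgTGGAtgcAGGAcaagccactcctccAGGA

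The PIEZO1 stretch held 10 AGGA or TGGA matches and no ACTG or ACTT, and the RRP1 stretch held 5 and 1. Over the whole mRNA, PIEZO1 had 135 AGGA or TGGA matches, or 16.7 per kb, and RRP1 had 60, or 19.9 per kb, where the median of 19669 protein-coding genes was 13.2 per kb. These densities were above those of 81.5% and 93.7% of genes. ACTG or ACTT was sparse in both, at 6.18 per kb in PIEZO1 and 4.96 per kb in RRP1 against a median of 8.67, which put them above 17.4% and 7.88% of genes. Both mRNAs were rich in G and C, 64.3% for PIEZO1 and 60.7% for RRP1 against a median of 49.4%. Matches were counted on the transcript's own strand with overlaps allowed, and base composition and element density were not separated.

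PIEZO1 had 7 sites in WT-iso1, 23 in WT-iso7, 35 in I304N-iso1 and 130 in I304N-iso7. FXR2 had 1 site and FXR1 none. Scaled to 100000 sites per library, PIEZO1 ranked highest in I304N-iso7 with 147 (123 to 174). WT-iso7 with 29.3 (18.6 to 44.0) and I304N-iso1 with 26.5 (18.4 to 36.8) followed, and their intervals overlap. WT-iso1 was lowest of the 4 FMR1 libraries at 5.74 (2.31 to 11.8). I304N-iso7 stood clear of every other library, and WT-iso1 clear of the other 3 FMR1 libraries.

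RRP1 had no site in WT-iso1, 5 in WT-iso7, 15 in I304N-iso1 and 24 in I304N-iso7. FXR1 and FXR2 had none. Per 100000 sites these were 27.1 (17.3 to 40.3) in I304N-iso7, 11.3 (6.35 to 18.7) in I304N-iso1 and 6.37 (2.07 to 14.9) in WT-iso7. These intervals overlap from each level to the next, although the ratio between the I304N libraries, given below, lay above 1 beyond counting error. The middle pair stood in the other order than in PIEZO1, with overlapping intervals in both genes.

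**Figure D1:**
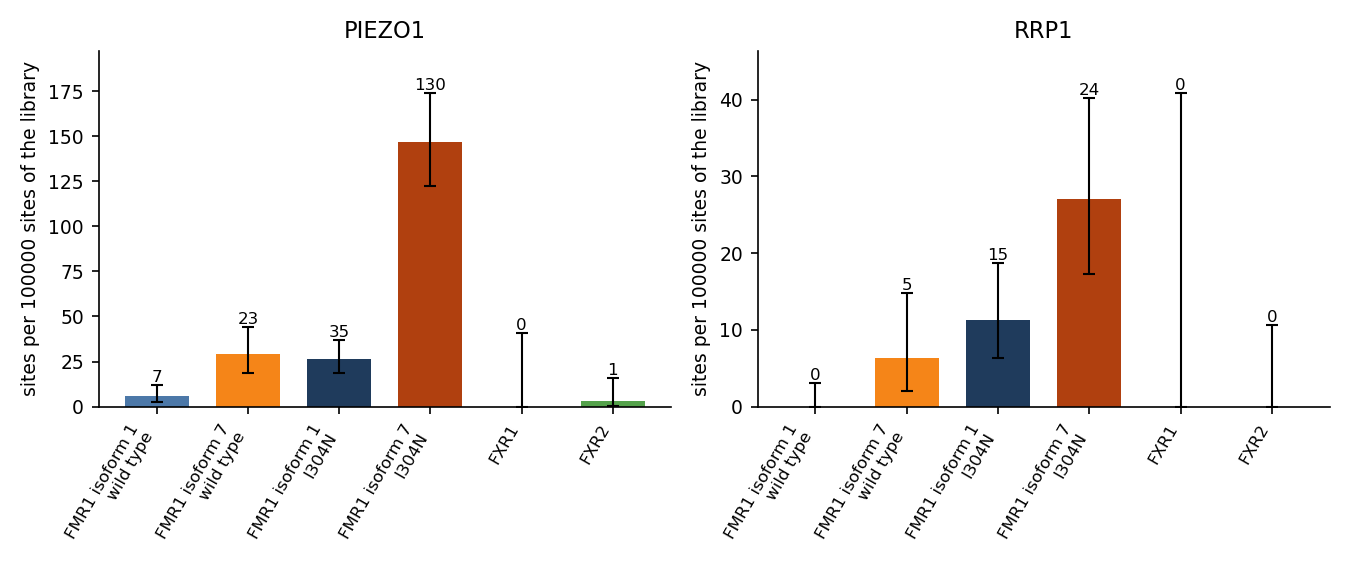
Sites per 100000 sites of the library (vertical axis) in PIEZO1 (left) and RRP1 (right) for the 6 libraries (horizontal axis); bars are the scaled values, error bars exact 95% Poisson intervals and the numbers above them the sites counted. I304N-iso7 is highest in both genes, with 130 and 24 sites.

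Isoform 7 was denser than isoform 1 in PIEZO1 by a scaled ratio of 5.10 (2.12 to 14.1) in wild type and 5.54 (3.79 to 8.29) with I304N. In RRP1 the wild-type ratio was at least 2.59, counting 3 sites in place of 0 (lower exact limit 1.42), and the I304N ratio was 2.39 (1.20 to 4.89). Both genes thus lay past 2-fold in both forms, as did 1.95% of 7993 windows of 50 kb with a mean of at least 2 sites per 100000. When sites closer than 50 nt were joined, RRP1 no longer passed 2-fold with I304N, at 1.89. Median-of-ratios scaling raised the wild-type ratio of PIEZO1 to 7.72 and the bound of RRP1 to 3.91. The share of windows past 2-fold was 25.0% in wild type and 4.73% with I304N. Window shares were taken after 1 was added to scaled counts, while the gene ratios are over gene spans without it. With 1 added, the log2 ratio was 2.17 in wild type and 2.43 with I304N in PIEZO1. In RRP1 it was 2.88 and 1.19, where a log2 ratio of 1 is 2-fold. These are the counts that chose the genes, and the shares are given for scale.

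I304N was denser than wild type in both genes as well. PIEZO1 gained 4.61-fold (2.02 to 12.3) with I304N in isoform 1, and the isoform 7 ratio was 5.01 (3.20 to 8.17). In RRP1 the ratio was at least 4.61 in isoform 1, counting 3 sites in place of 0 (lower exact limit 3.31), and 4.25 (1.59 to 14.3) in isoform 7. Gains of 2-fold or more were common among windows, 32.7% in isoform 1, 20.8% in isoform 7 and 13.5% in both, while 7.61% were at least 2-fold less dense in both. Under median-of-ratios scaling the isoform 1 values of PIEZO1 and RRP1 both became 7.17. The same 4 libraries chose the genes, so these ratios are not independent of the rule. Windows past 2-fold in all 4 comparisons, as both genes were, made up 1.33%.

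FXR1 and FXR2 took no part in the choice. Their lists were too short for most comparisons: at the density of WT-iso1, FXR1 would have 0.518 sites in PIEZO1 and FXR2 1.98, and at that of WT-iso7 they would have 2.64 and 10.1. The single FXR2 site gave a ratio of 0.0989 (0.00240 to 0.609) to WT-iso7 and 0.504 (0.0112 to 3.93) to WT-iso1. The first was lower beyond counting error, though against a library that helped to choose the gene, and the second was not distinguishable from 1. The ratio to WT-iso7 became 0.0611 under median-of-ratios scaling, and that to WT-iso1 became 0.910 when covered nt were counted in place of sites. Against wild-type FMR1, FXR2 was at least 2-fold less dense in 26.9% of windows and denser in 12.8%, and FXR1 less dense in 52.2% and denser in 30.8%. In RRP1, FXR1 and FXR2 would have 0.574 and 2.20 sites at the density of WT-iso7, so their lack of sites was not detectable as a difference at this depth. A count of 0 still allows 0.0333% of FXR1 sites and 0.00869% of FXR2 sites, counting 3 sites.

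The sites of PIEZO1 were not spread alike along the gene in the 4 FMR1 libraries. All 7 sites of WT-iso1 lay 51.3 to 69.2 kb from the 5′ end, that is in the last 27.8 kb of the gene. This 3′ part held 18 of 23 sites in WT-iso7, 33 of 35 in I304N-iso1 and 46 of 130 in I304N-iso7, or 35.4% (27.2 to 44.2). The remaining 84 sites of I304N-iso7 lay upstream of it, where WT-iso7 had 5, I304N-iso1 had 2 and WT-iso1 none.

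Within the upstream part, 66 sites of I304N-iso7 formed an unbroken run, defined after seeing the data as sites with no gap over 2000 nt between neighbouring midpoints. The run covered chromosome 16 from 88819890 to 88830739 (hg19, minus strand), 20.6 to 31.5 kb from the 5′ end, at 6.08 sites per kb. WT-iso7 had 3 sites there, I304N-iso1 had 2, and WT-iso1, FXR1 and FXR2 none. In I304N the scaled ratio of isoform 7 to isoform 1 in the run was 49.2 (13.1 to 415), from 66 sites against 2. In the 3′ part it was 2.08 (1.30 to 3.36), from 46 against 33, and in wild type 3.99 (1.59 to 11.3), from 18 against 7. Since the run was found where I304N-iso7 is dense, its ratio is high by construction and describes where the sites lie.

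**Figure D2:**
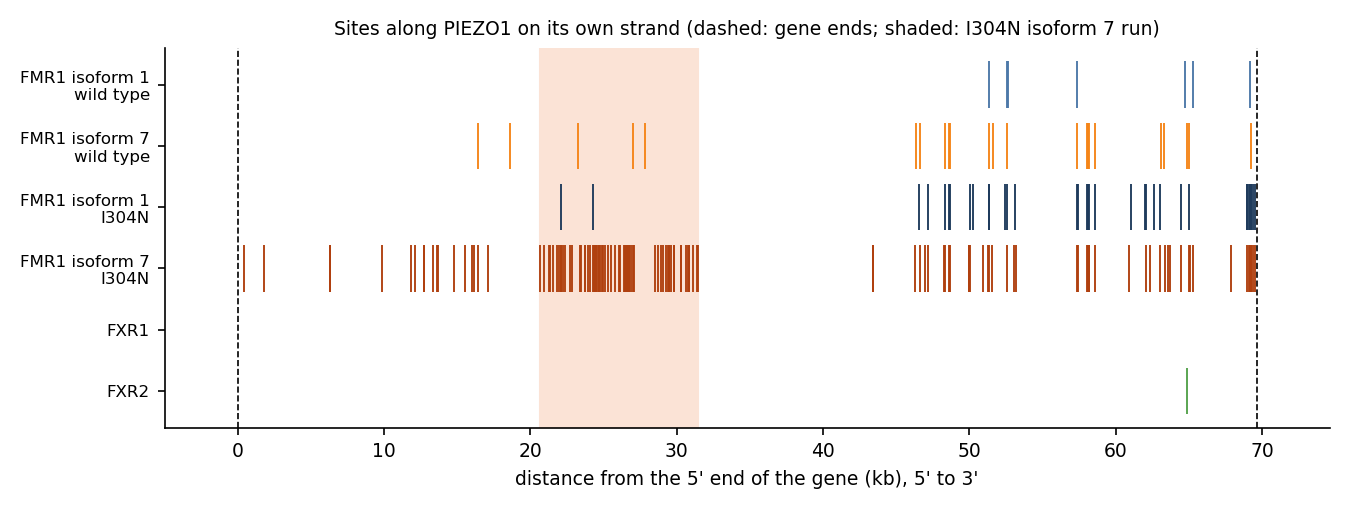
Site positions along PIEZO1 on the minus strand, as distance from its 5′ end in kb (horizontal axis) for the 6 libraries (rows); each tick is 1 site, dashed lines mark the gene's ends and shading the I304N-iso7 run. The 3′ part is filled in all 4 FMR1 libraries, and the run holds 66 sites of I304N-iso7 against 3, 2 and 0 in the other FMR1 libraries.

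The run of 10.85 kb was longer than any annotated PIEZO1 exon. In GENCODE release 29 the longest exon of the 15 PIEZO1 transcripts had 1719 nt, and the 51 exons of the longest mRNA, 8089 nt in all, made up 11.6% of the gene. Exon borders on hg19 were not used here, so single sites were not assigned to exons or introns. After the run there was a gap of 11.9 kb without a site in I304N-iso7, which reached into the 3′ part. Sites of the run had a median width of 22 nt and a median spacing of 124 nt, and the other 64 sites of that library in the gene had a median width of 23 nt. In the run 4 of 66 sites carried the authors' repeat flag, 6.06% (1.68 to 14.8), against 3.48% of all I304N-iso7 sites.

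In RRP1 the dense stretch ran past the annotated end of the gene. The window of 50 kb by which RRP1 was chosen held 89 sites of I304N-iso7, and only 24 of them, 27.0% (18.1 to 37.4), lay in the gene. For I304N-iso1 it was 15 of 23 and for WT-iso7 5 of 11. The same definition of a run gave 79 sites of I304N-iso7 on chromosome 21 from 45222793 to 45240109 (hg19, plus strand), at 4.56 sites per kb. It began 13.4 kb from the 5′ end of RRP1 and ended 14.9 kb beyond the 3′ end, so that 16 of its sites were in the gene and 63 downstream.

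Upstream of the run, the first 13.4 kb of RRP1 had no detectable excess of isoform 7 with I304N. There I304N-iso7 had 8 sites and I304N-iso1 had 12, a scaled ratio of 0.994 (0.353 to 2.65), and WT-iso7 had 3. Inside the gene's part of the run the counts were 16 and 3 for I304N-iso7 and I304N-iso1, a ratio of 7.96 (2.28 to 42.6), and 2 for WT-iso7. Downstream of the gene they were 63 and 8, a ratio of 11.7 (5.61 to 28.4), and 5 for WT-iso7. WT-iso1 had no site in any of these parts. The borders of these parts were set by where I304N-iso7 sites are dense, which favours a higher ratio inside the run than before it, so the ratios describe these lists and test nothing. The interval before the run still allows a 2-fold change.

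**Figure D3:**
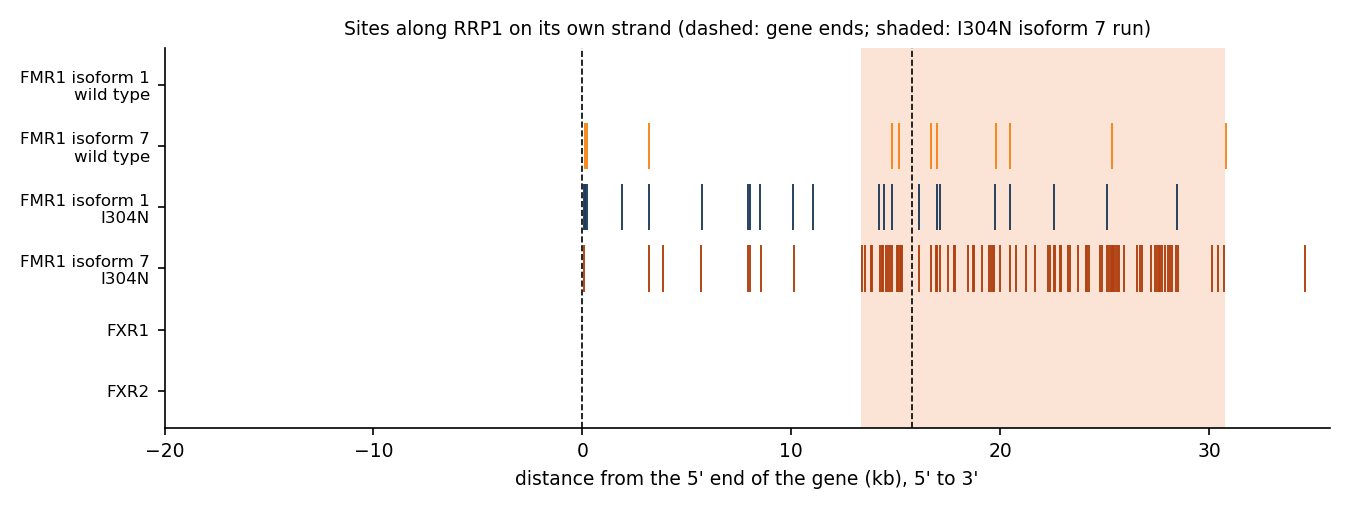
Site positions along RRP1 and 20 kb either side on the plus strand, as distance from its 5′ end in kb (horizontal axis) for the 6 libraries (rows); each tick is 1 site, dashed lines mark the gene's ends and shading the I304N-iso7 run. The run holds 79 sites of I304N-iso7, 63 of them beyond the gene's 3′ end, against 11 and 7 in I304N-iso1 and WT-iso7.

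Sites beside the genes were counted on the opposite strand and in flanks of 1 gene length. On the strand opposite RRP1 no library had a site, and on the strand opposite PIEZO1 I304N-iso1 had 1 and the others none. Within 1 gene length upstream of RRP1 no library had a site on the same strand. Within 1 gene length of PIEZO1 on its strand, I304N-iso7 had 2 sites upstream and 4 downstream, and I304N-iso1 had 4 and 2. The scaled ratio of isoform 7 to isoform 1 with I304N was 0.746 (0.0675 to 5.20) upstream and 2.98 (0.428 to 33.0) downstream. Neither was distinguishable from 1. In GENCODE release 29 the genes next to PIEZO1 are CTU2 and CDT1, both on the other strand. Downstream of RRP1 lie AATBC, a noncoding RNA on the other strand, and then AGPAT3 on the same strand; where AGPAT3 begins on hg19 was not used here.

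The neighbouring windows given here had smaller isoform ratios with I304N than the gene spans. The window on chromosome 21 from 45150001 to 45200000 (plus strand), just before that of RRP1, had 46 sites in WT-iso1, 64 in WT-iso7, 79 in I304N-iso1 and 67 in I304N-iso7, a scaled ratio of 1.27 between the I304N libraries with an interval that spans 1. Its wild-type isoform ratio was 2.16 (1.46 to 3.23), and its ratio of I304N to wild type 1.58 (1.09 to 2.33) in isoform 1 and 0.927 (0.648 to 1.33) in isoform 7. The window on chromosome 16 from 88850001 to 88900000 lay on the plus strand, opposite PIEZO1. It began just within the gene's span and reached beyond its 5′ end. This window had 7, 10, 31 and 33 sites in the same order, a ratio of 1.59 (0.943 to 2.68) between the I304N libraries. There the wild-type isoform ratio was 2.22 (0.762 to 6.87), and I304N exceeded wild type 4.08-fold (1.76 to 11.0) in isoform 1 and 2.92-fold (1.41 to 6.65) in isoform 7.

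Where I304N-iso1 had sites in these genes, most of them overlapped a site of I304N-iso7 by at least 1 nt. In PIEZO1 26 of 35 did, 74.3% (56.7 to 87.5), and in RRP1 9 of 15, 60% (32.3 to 83.7), against 50.0% of all I304N-iso1 sites. The RRP1 share was not distinguishable from that over all sites. Both genes were chosen in part on dense I304N-iso7 sites, which by itself favours a high share. Inside the runs, 2 of 2 I304N-iso1 sites in PIEZO1 were overlapped. In RRP1 it was 9 of 11, 81.8% (48.2 to 97.7), counting the stretch beyond the gene. In the 3′ part of PIEZO1 it was 24 of 33 and in RRP1 before its run 7 of 12. Read from I304N-iso7, 75.9% of all sites overlapped one of I304N-iso1, 22 of 46 in the 3′ part of PIEZO1, 2 of 66 in the PIEZO1 run, 7 of 8 in RRP1 before its run and 9 of 79 in the RRP1 run. The low shares in the runs follow from the counts, since I304N-iso1 had only 2 and 11 sites there, and say nothing of position. Of 23 WT-iso7 sites in PIEZO1, 15 met I304N-iso7 (42.7 to 83.6%), 12 met I304N-iso1 (30.6 to 73.2%) and 2 met WT-iso1. Over all WT-iso7 sites the shares were 49.8%, 66.4% and 48.5%. Of the 5 in RRP1, 4 met I304N-iso1 and 2 met I304N-iso7. The shares with the I304N libraries were not distinguishable from those over all sites in either gene. The count with WT-iso1 was limited by its 7 sites in PIEZO1.

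**Figure D4:**
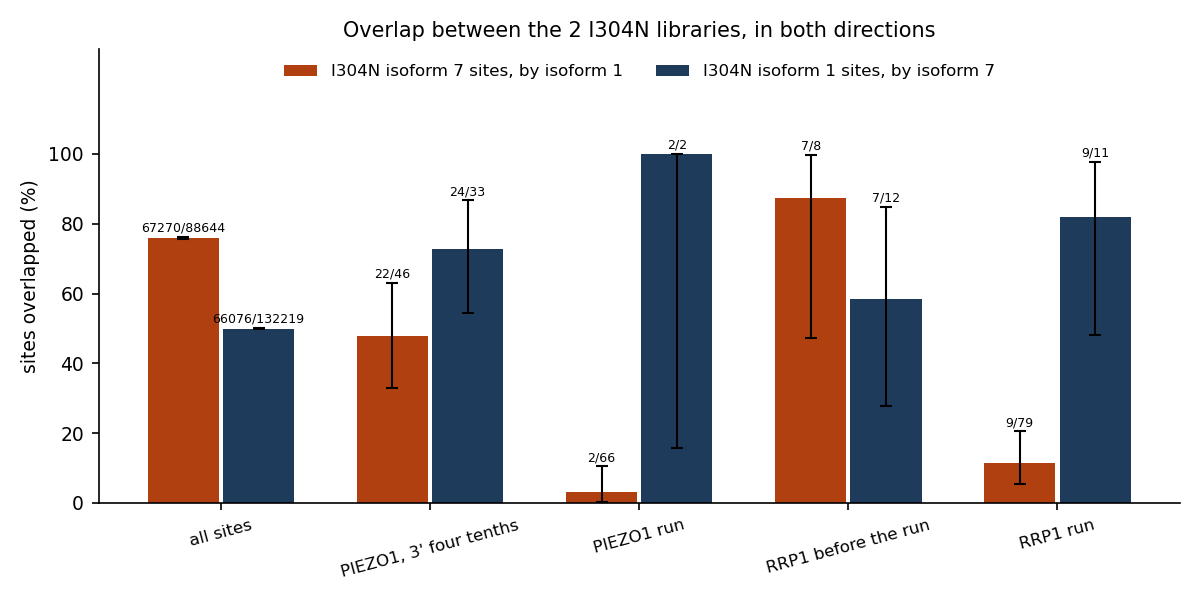
Percent of I304N-iso7 sites that share at least 1 nt with an I304N-iso1 site, and of I304N-iso1 sites that share it with an I304N-iso7 site (vertical axis), over all sites and in parts of PIEZO1 and RRP1 (horizontal axis); error bars are exact 95% Clopper-Pearson intervals and the numbers above them sites overlapped and sites in all. In the runs 2 of 2 and 9 of 11 I304N-iso1 sites are overlapped, and the low shares of I304N-iso7 sites, 2 of 66 and 9 of 79, follow from the few I304N-iso1 sites.

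When touching sites of the 6 libraries were merged, PIEZO1 had 150 stretches and RRP1 had 31. Of the PIEZO1 stretches, 101 held sites of I304N-iso7 alone, and of the RRP1 stretches 15 did. Stretches with sites in both isoform 7 libraries and no other library numbered 3 in PIEZO1 and 0 in RRP1, whereas those in both I304N libraries and no other numbered 11 and 7. A further 10 in PIEZO1 and 2 in RRP1 held both I304N libraries and WT-iso7 without WT-iso1. Stretches common to the isoform 7 libraries and missing from the isoform 1 libraries were few, but WT-iso7 had only 23 and 5 sites to share. The same counts were not made over all stretches of the series. Whether these numbers are low for the libraries is therefore not known.

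Just 2 stretches, both in PIEZO1, held all 4 FMR1 libraries. They lay on chromosome 16 from 88798785 to 88798807 and from 88800042 to 88800072, 52.6 and 51.3 kb from the 5′ end, with 1 site of each library. Of the stretches with 3 libraries in PIEZO1, the one with most sites was 88 nt long, from 88782086 to 88782173, 69.2 kb from the 5′ end and close to the 3′ end, with 5 sites of WT-iso7 and both I304N libraries. In RRP1 the stretches with most libraries held 3, on chromosome 21 from 45212562 to 45212597, 3.19 kb from the 5′ end, and from 45224203 to 45224240, inside the run. Near the start of RRP1, from 45209465 to 45209489, both I304N libraries had a site. Close by, from 45209493 to 45209513 and from 45209613 to 45209633, I304N-iso1 and WT-iso7 had a site and I304N-iso7 had none.

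The widest sites of PIEZO1 were 79 nt, 60 nt and 56 nt wide, all of I304N-iso7 and all in the 3′ part. In RRP1 a 68 nt site of I304N-iso1 from 45219462 to 45219529 overlapped a 55 nt site of I304N-iso7 from 45219476 to 45219530, and a 48 nt site of I304N-iso7 lay in the run. Beyond the gene the run reached 83 nt for its widest site.

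The runs were set against all runs of at least 40 sites with no gap over 2000 nt, mitochondrial sites left out. I304N-iso7 had 192 such runs, and they were ranked by the highest scaled density among the other 3 FMR1 libraries, relative to I304N-iso7. PIEZO1 ranked first of the 192, at 0.0513, with I304N-iso7 19.5 (6.38 to 96.9) times as dense as WT-iso7. RRP1 ranked second, with I304N-iso7 9.99 (4.63 to 25.7) times as dense as WT-iso7. A run enters by its count in I304N-iso7 and is ranked by the same count, in genes selected on these 4 libraries, so ranks and ratios are a description and support nothing. The median of the ranked value was 0.890, and 2.08% of the runs, 4 in number, had every other FMR1 library at 20% or less of the density of I304N-iso7. The other 2 were on the minus strand: chromosome 5 from 138726441 to 138732613 held 41 sites of I304N-iso7 against 8, 1 and 0 of I304N-iso1, WT-iso7 and WT-iso1, and chromosome 9 from 131386919 to 131399303 held 73 against 16, 7 and 5. WT-iso7 and I304N-iso1 had 120 and 282 runs and none of this kind, and WT-iso1 had 30 among 543, or 5.52%. Runs were found in 1 library each and without replicates, and whether a second library of I304N-iso7 would show them was not tested.

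**Figure D5:**
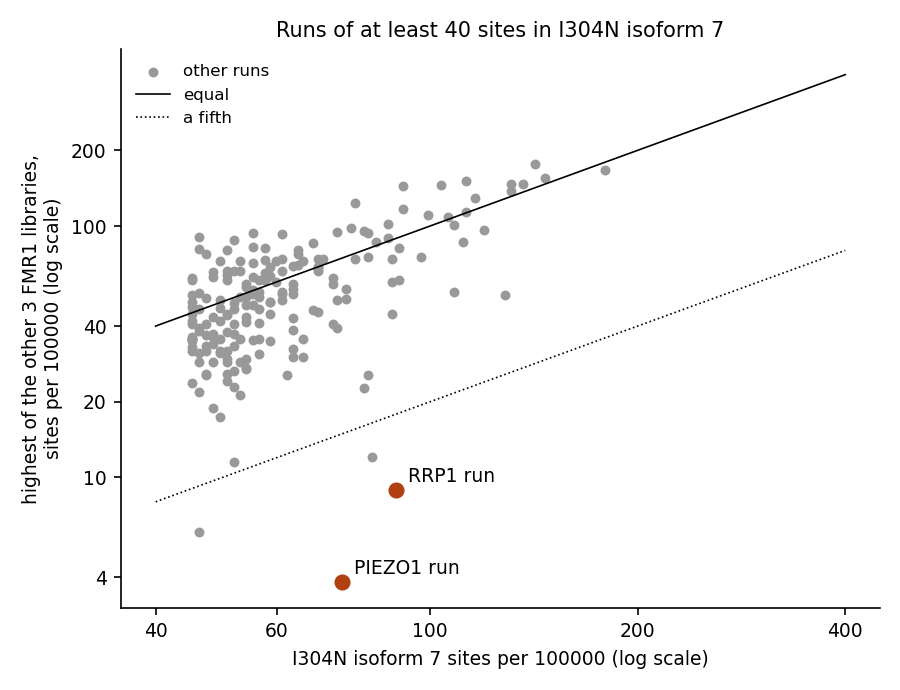
The 192 runs of at least 40 sites in I304N-iso7: sites per 100000 in that library (horizontal axis, log scale) against the highest of the other 3 FMR1 libraries in the same stretch (vertical axis, log scale); the solid line marks equal density and the dotted line 20% of it. The PIEZO1 and RRP1 runs lie furthest below the solid line, 19.5 and 9.99 times as dense in I304N-iso7 as in the next library.

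PIEZO1 made up 2.95% (2.47 to 3.49) of all chromosome 16 sites of I304N-iso7, against 0.519% (0.362 to 0.722) in I304N-iso1, 0.565% (0.359 to 0.847) in WT-iso7 and 0.183% (0.0737 to 0.377) in WT-iso1. RRP1 made up 1.53% (0.981 to 2.26) of the chromosome 21 sites of I304N-iso7 and 0.777% (0.436 to 1.28) of those of I304N-iso1, with overlapping intervals. For WT-iso7 it was 0.403% (0.131 to 0.938), and WT-iso1 had no site in RRP1 (upper limit 0.207%).

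Windows with the pattern nearest to each gene were sought over the 6 libraries by Pearson's r of log2 scaled counts with 1 added. For PIEZO1 the nearest of 7978 windows was chromosome 17 from 77900001 to 77950000 (minus strand), r = 0.992, with 4, 10, 21 and 37 sites in WT-iso1, WT-iso7, I304N-iso1 and I304N-iso7, none in FXR1 and 1 in FXR2. The next 4 lay on chromosomes 16, 5, 19 and 14, with r from 0.981 to 0.987. In the same order of FMR1 libraries they had 30, 25, 49 and 52 sites on chromosome 16 and 3, 9, 17 and 23 on chromosome 5. On chromosome 19 there were 30, 29, 68 and 77, and on chromosome 14 25, 26, 48 and 41. A high r thus did not require isoform 7 to be 2-fold denser. For RRP1 the fifth in rank, the one with the most sites among its top 5, was chromosome 19 from 36000001 to 36050000 (minus strand), with 0, 3, 9 and 12 sites and none in FXR1 or FXR2. The first 4 for RRP1 each had 0, 2, 5 and 6. An r of at least 0.9 was reached by 753 windows for PIEZO1 and 626 for RRP1. With 6 points that share library depth, and counts this low, the likeness is a description only.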

How the data were processed

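Deposited files were 6 lists of PAR-CLIP sites, 1 per protein form, grouped by the immunoprecipitated protein in the labels. The submitters' processing notes name Bowtie 0.12.7 and the build hg19. How sites were called, and with which limits, is not given in the sources used here. The only value per site is the deposited score, a flag that per the file headers is 1000 outside repeats and 0 in a repeat. A longer list can reflect depth or calling as well as binding, which cannot be told apart.

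Sites were counted by midpoint, scaled to 100000 per library and compared with exact Poisson, conditional and Clopper-Pearson intervals (Python 3.11.15, scipy 1.17.1); the counting code was tested on simulated data. Windows of 50 kb per strand used a pseudocount of 1. The genes, the lists and the run definition were chosen with earlier results of these data known. Named windows are the 5 most alike per gene, named stretches the 3 with most libraries and the 3 widest sites per gene. In RRP1, other stretches near its start with as many libraries and sites as the third are named too. GENCODE release 29 (GRCh38) served for names, neighbours, exon lengths and mRNA sequence, never for coordinates; motif shares per site and gene lists on hg19 were not analysed here. RRP1 mRNA shared 0 of its 3003 words of 20 nt with its paralog RRP1B, and PIEZO1 shared 16 of 8067 with PIEZO2.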

Additional observations from a re-analysis of the deposited data

How the results depend on the processing

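Of 244 alternative values, 226 stayed within the counting interval of the main value or, for window shares and runs, within 1.5 times of it, and none changed direction. Every isoform and I304N ratio of PIEZO1 and RRP1 did so with sites assigned by any overlap or whole inclusion, repeat-flagged or mitochondrial sites left out, sites closer than 50 nt joined, covered nt in place of sites where neither count was 0, and median-of-ratios scaling, although some moved by over 1.5 times or fell below 2-fold, as given beside them. Part of the 244 values could hardly move. Gene counts of 0 stayed 0, and any overlap or whole inclusion gave the main value for both genes. The number that stayed is therefore no measure of robustness. The shares of windows past 2-fold moved. With a pseudocount of 5, isoform 7 was denser in 8.92% of windows in wild type, 1.41% with I304N and 0.300% in both; I304N was denser in 16.8% in isoform 1, 10.5% in isoform 7 and 5.03% in both and less dense in both in 2.00%; all 4 comparisons were passed in 0.200%; FXR2 was denser in 5.47% and less dense in 12.8%. Without a filter, isoform 7 was denser in 37.5% in wild type, I304N in 19.8% in isoform 1 and 7.02% in both and less dense in both in 3.61%, all 4 were passed in 0.511%, and FXR1 was denser in 12.1%. With median-of-ratios scaling and the filter kept, FXR1 was denser in 19.6%. Counting midpoints within 50 nt as shared, 88.6% of I304N-iso1 sites in PIEZO1 met I304N-iso7. The causes were not tested. Run settings added after seeing the data kept PIEZO1 first in rank and RRP1 second, except that with runs of at least 20 sites RRP1 ranked 4 of 802. With a largest gap of 1000 nt the PIEZO1 run shrank to 46 sites. Shares of sites holding a motif were not run without an hg19 genome. No paired analysis was possible because each protein form had 1 library.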

Other observations

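Each deposited site name holds a number that never fell along a chromosome strand in any of the 6 libraries, and some numbers have no site. What a skipped number stands for is not given in the sources used here. Over whole lists 71.6% of the numbers up to the highest were used in WT-iso1, 80.1% in WT-iso7, 80.6% in I304N-iso1 and 78.6% in I304N-iso7. In the PIEZO1 run the 66 sites of I304N-iso7 used 57 of 74 numbers, and the sites of WT-iso7 and I304N-iso1 used 3 of 3 and 2 of 2. Between the WT-iso1 sites either side of the PIEZO1 run 1 number was skipped, over a stretch longer than the run. In the RRP1 run I304N-iso7 used 66 of 93 numbers, I304N-iso1 used 11 of 26 and WT-iso7 used 7 of 10. WT-iso1 had no site in the run or in the whole 50 kb window of RRP1. It skipped 11 numbers between the sites either side of that longer stretch, so these cannot be placed in the run.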
